A study of Mus musculus with 20 samples.

Results

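Expression of 10 genes of gluconeogenesis and the cAMP response was followed in the livers and kidneys of mice given a cocktail of 7 small molecules (7c) or its solvent. Pck1, G6pc1, Fbp1, Pcx and Slc37a4 belong to gluconeogenesis itself, and Nr4a1, Sik1, Crem, Creb3l3 and Igfbp1 respond to cAMP or to fasting. The genes were chosen by name, and each symbol was mapped to 1 Ensembl identifier among the 57010 genes in the count table. All mice were male UM-HET3 animals, a heterogeneous cross in which each mouse is genetically distinct, and they were 12 months old. A subcutaneous osmotic minipump delivered 7c or vehicle for 28 days. The 7c pumps gave repsox, tranylcypromine, DZNep, CHIR99021, forskolin and TTNPB at 0.1 mg/kg/day each and valproate at 1 mg/kg/day, dissolved in 50% DMSO and 50% PEG300, and the vehicle pumps held that solvent alone. The 7 compounds were always given together, so that a response to one of them cannot be told apart from a response to another. Libraries of 6 livers and 6 kidneys from 7c mice and of 4 livers and 4 kidneys from vehicle mice were available, each labelled as a separate biological replicate. P-values and intervals within an organ therefore measure the spread between these mice. According to the paper, RNA was taken from both organs of its mice, so that livers and kidneys here share animals. Whether a liver and a kidney with the same replicate number came from the same mouse is not given in the sources used here. Comparisons between the organs, and of the 7c effect between them, treat all libraries as independent and leave this pairing out.

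Gluconeogenesis makes glucose from lactate, amino acids and glycerol, and the hepatocyte and the proximal tubule cell of the kidney are the cells known for it. In fasting, glucagon raises cAMP in hepatocytes, protein kinase A phosphorylates CREB, and CREB with its CRTC coactivators switches on genes of the pathway as well as genes that dampen the signal. Forskolin, a component of 7c, activates adenylyl cyclase directly and therefore raises cAMP in many cell types. Food and water were freely available to the mice, while any fast before collection and the hour of collection are not given in the sources used here. The comparison of 7c with vehicle therefore addresses whether these genes stood at other levels after a month of exposure, and the comparison of the organs addresses where each gene was expressed.

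The classical route from CREB to a gene is the cAMP response element TGACGTCA, of which the shorter TGACG alone can also bind CREB. RefSeq promoters of 300 bases (250 before to 50 after the annotated start) were at hand for 8 of the 10 genes, all but Sik1 and Crem, in 12 windows because some genes have several starts. The full element was in 0 of the 12 windows, against 1.79% of all 32851 promoter windows of the RefSeq table (GRCm38.p6). The shorter motif, searched on both strands and also counted within the full element, was in 5 of the 12 windows, of Pck1, Nr4a1, Creb3l3 and Slc37a4, against 20.8% of all windows. A match is a description of letters and not evidence of binding, and no match says only that these letters are not in the window.

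The promoters of Pck1, Nr4a1 and G6pc1 are shown because they stand for an abundant enzyme gene with 1 short motif, a scarce immediate-early gene with 4, and an enzyme gene with none. Each was placed on GRCm39 by its only exact match, and all 3 are on the plus strand. Capitals mark TGACG or its reverse complement CGTCA.
Pck1, chr2:172994616-172994915: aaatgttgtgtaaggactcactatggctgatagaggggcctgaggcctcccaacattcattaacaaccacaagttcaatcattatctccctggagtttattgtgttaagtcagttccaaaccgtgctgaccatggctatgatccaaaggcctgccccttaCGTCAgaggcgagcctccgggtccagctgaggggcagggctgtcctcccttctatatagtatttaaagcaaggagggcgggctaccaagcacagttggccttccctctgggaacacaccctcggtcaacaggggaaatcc
Nr4a1, chr15:101164477-101164776: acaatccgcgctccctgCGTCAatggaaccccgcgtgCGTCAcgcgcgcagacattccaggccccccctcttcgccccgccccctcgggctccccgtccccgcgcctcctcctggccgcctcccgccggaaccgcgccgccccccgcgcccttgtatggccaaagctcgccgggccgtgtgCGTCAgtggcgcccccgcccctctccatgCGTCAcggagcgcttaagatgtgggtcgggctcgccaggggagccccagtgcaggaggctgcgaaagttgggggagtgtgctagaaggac
G6pc1, chr11:101258292-101258591: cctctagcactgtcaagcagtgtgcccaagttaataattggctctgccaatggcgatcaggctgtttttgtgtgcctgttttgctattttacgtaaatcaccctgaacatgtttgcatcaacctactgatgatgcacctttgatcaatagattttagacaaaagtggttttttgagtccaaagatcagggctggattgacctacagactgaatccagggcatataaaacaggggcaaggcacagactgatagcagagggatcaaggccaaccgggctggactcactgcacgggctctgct

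The motif of Pck1 began 90 bases before the start. In Nr4a1 the 4 motifs began 233, 213, 69 and 40 bases before the start, and 4 or more were found in 0.231% of all windows. Of the 3 starts of Slc37a4, 2 had the motif within their window, where the windows overlap and share a site, as had 1 of the 2 starts of Creb3l3, while the windows of Fbp1, Pcx and Igfbp1 had none.

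Total counts ranged from 28383359 to 34153084 per liver library and from 27855849 to 64872451 per kidney library. Levels are given as library-scaled counts (CPM) on 1 scale normalized over all 20 libraries, and all 10 genes passed the filter on low counts in both tissues. The tissue labels fitted the marker genes. Summed hepatocyte markers (7 of 8 listed genes matched) were 95709 CPM or more in every liver and 285 CPM or less in every kidney, and summed proximal tubule markers (8 of 8) were 29813 CPM or more in every kidney and 2.07 CPM or less in every liver. The liver of 7c replicate 6 held 823 CPM of 6 skeletal muscle markers, and the kidney of vehicle replicate 2 and the kidney of 7c replicate 5 had the highest proximal tubule sums (53449 and 59508 CPM). Adipocyte markers (8 of 8) summed to 47.7 to 126 CPM in 7c kidneys and to 29.8 to 39.9 CPM in vehicle kidneys. These are whole-tissue measurements, in which fewer cells of a type and less RNA per cell cannot be told apart.

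**Figure D1:**
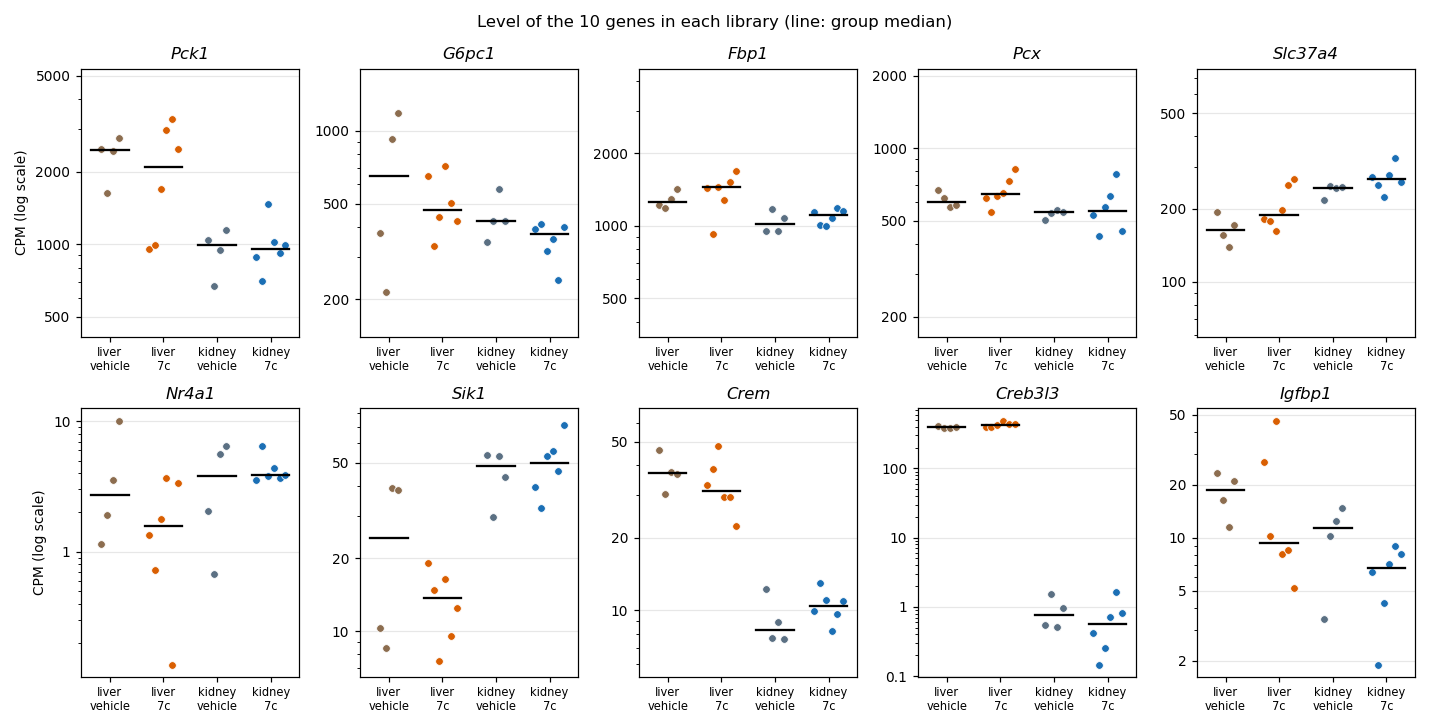
CPM of each of the 10 genes (log axis) in the 4 groups, with a point for each library and a line at the group median. Creb3l3 lay at 384 CPM or more in every liver and at 1.65 CPM or less in every kidney, whereas the 7c and vehicle points of the same organ overlapped in all 10 panels.

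The level of each gene was ranked per kilobase of its merged exons, since longer transcripts collect more reads. In vehicle livers the order was Pck1 (631 CPM per kb), Fbp1 (545), G6pc1 (278), Creb3l3 (108), Pcx (98.0), Slc37a4 (36.2), Igfbp1 (10.7), Crem (3.34), Sik1 (1.99) and Nr4a1 (0.382), each a mean of 4 libraries. Between neighbours in that order the library ranges overlapped for Pck1 and Fbp1, G6pc1 and Creb3l3, Creb3l3 and Pcx, Crem and Sik1, and Sik1 and Nr4a1. In vehicle kidneys Fbp1 came first (441 CPM per kb), above the whole range of Pck1 (257), and G6pc1 (182), Pcx (85.9), Slc37a4 (52.5), Igfbp1 (6.01), Sik1 (3.72), Crem (0.807), Nr4a1 (0.340) and Creb3l3 (0.243) followed. There the ranges of neighbours overlapped for Pck1 and G6pc1, Igfbp1 and Sik1, and Nr4a1 and Creb3l3. The enzyme and transporter genes thus took the highest places in both organs, with Creb3l3 among them in liver and last in kidney. In 7c livers Fbp1 (587 CPM per kb) and Pck1 (559) changed places, with overlapping ranges, and in 7c kidneys Sik1 (4.11) and Igfbp1 (3.62) did. Lengths of the longest transcript in place of merged exons gave the same order in each group.

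Liver and kidney of vehicle mice were compared first. Pck1, Crem and Creb3l3 were higher in liver and Slc37a4 was higher in kidney, so that 4 of the 10 genes passed an adjusted p of 0.05 (edgeR's quasi-likelihood test with Benjamini-Hochberg adjustment over 17245 genes). The share among all genes tested was 53.4%, and 53.1% of all genes had CPM values that did not overlap between the organs, as 6 of the 10 genes did. At an unadjusted p under 0.05 the count was 4 of 10 against 58.4% of all genes. The median log2 difference, liver minus kidney, was 0.46 over the 10 genes and -0.058 over all genes tested. With library totals in place of TMM factors these medians were -0.13 and -0.66. The same vehicle libraries are the controls of the comparisons with 7c further on.

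Pck1 (ENSMUSG00000027513, chromosome 2, 172994744 to 173001066 of GRCm39) encodes the cytosolic phosphoenolpyruvate carboxykinase, which turns oxaloacetate into phosphoenolpyruvate. Its level was 2493, 1638, 2446 and 2765 CPM in the livers of vehicle replicates 1 to 4 and 1045, 671, 946 and 1145 CPM in the kidneys of vehicle replicates 1 to 4. Every vehicle liver was above every vehicle kidney, and the log2 difference was 1.30 (standard error 0.217, adjusted p = 4.20e-04 from edgeR). When library totals replaced TMM factors the difference was 0.68, still past the threshold. Among 7c mice the organs overlapped, with livers at 954 to 3300.1 CPM and kidneys at 704 to 1476 CPM.

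G6pc1 (ENSMUSG00000078650, chromosome 11, 101258369 to 101268729) is the catalytic subunit of glucose-6-phosphatase, which releases free glucose. It had 376, 214, 926 and 1187 CPM in vehicle livers and 347, 422, 576 and 425 CPM in vehicle kidneys. The liver values lay on both sides of the kidney values, and the log2 difference of 0.61 had a 95% interval of -0.37 to 1.59. With library totals it was 0.030. Slc37a4 (ENSMUSG00000032114, chromosome 9, 44308144 to 44314265), the transporter that carries glucose 6-phosphate into the endoplasmic reticulum to that enzyme, went the other way. Its level was 195, 157, 139 and 171 CPM in vehicle livers and 219, 249.6, 244 and 247 CPM in vehicle kidneys. All 4 kidneys were above all 4 livers, and the log2 difference was -0.54 (standard error 0.137, adjusted p = 0.00650 from edgeR) or -1.14 with library totals. In 7c mice the Slc37a4 ranges overlapped, 162 to 267 CPM in liver and 225 to 326 CPM in kidney.

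Fbp1 (ENSMUSG00000069805, chromosome 13, 63012567 to 63036263), the fructose-1,6-bisphosphatase, and Pcx (ENSMUSG00000024892, chromosome 19, 4559902 to 4672189), the mitochondrial pyruvate carboxylase that makes oxaloacetate, did not pass the threshold between the organs with TMM scaling. Fbp1 ranged from 1186 to 1423 CPM in vehicle livers and from 953 to 1169 CPM in vehicle kidneys, and Pcx from 572 to 673 and 501 to 556 CPM. For both genes every liver lay above every kidney on the TMM scale, with log2 differences of 0.30 (adjusted p = 0.0940 from edgeR) and 0.19 (adjusted p = 0.225). The exact permutation test gave p = 0.0286 for both, the smallest that 4 against 4 libraries allow. The sign of both depended on the scaling. With library totals Fbp1 stood at -0.29 (adjusted p = 0.0862 from edgeR) and Pcx at -0.42 (adjusted p = 0.0120), that is, lower in liver. That scaling moved the median of all genes from -0.058 to -0.66 and the calls from 4439 higher and 4776 lower in liver to 2399 and 8160.

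Creb3l3 (ENSMUSG00000035041, chromosome 10, 80920141 to 80934708) encodes a membrane-bound transcription factor of the endoplasmic reticulum that is known in hepatocytes and enterocytes and is cut free under fasting. It showed the widest gap between the organs among the 10 genes, with 407, 384, 386 and 403 CPM in vehicle livers and 0.541, 1.52, 0.510 and 0.975 CPM in vehicle kidneys. The log2 difference was 8.80 (standard error 0.364, adjusted p = 7.36e-09 from edgeR), a fold of 447, and 8.23 on the log2 scale with library totals. Kidney libraries held 6 to 68 Creb3l3 counts, so that the kidney level rests on few reads. The highest Creb3l3 kidneys were vehicle replicate 2 and 7c replicate 5 (1.52 and 1.65 CPM), the libraries with the highest proximal tubule sums and also with the highest hepatocyte sums of their groups (277 and 285 CPM). The part of either in the Creb3l3 values was not tested.

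Crem (ENSMUSG00000063889, chromosome 18) encodes the cAMP-responsive modulator, whose short product ICER represses CREB targets. It had 46.1, 30.4, 37.3 and 36.7 CPM in vehicle livers against 12.2, 7.66, 8.92 and 7.61 CPM in vehicle kidneys, with no overlap, a log2 difference of 2.05 (standard error 0.200) and an adjusted p of 6.40e-06 from edgeR. The difference was 1.43 with library totals, also past the threshold. Sik1 (ENSMUSG00000024042, chromosome 17, 32058850 to 32074818), a salt-inducible kinase that keeps the CRTC coactivators out of the nucleus, pointed to kidney without passing the threshold. Vehicle livers had 10.3, 8.53, 39.3 and 38.4 CPM and vehicle kidneys 53.7, 29.8, 53.0 and 43.7 CPM, a log2 difference of -0.90 (adjusted p = 0.127 from edgeR). Among 7c mice all 6 livers (7.54 to 19.1 CPM) were below all 6 kidneys (32.5 to 71.8 CPM). With limma-voom Sik1 (-1.18, adjusted p = 0.0385) and Fbp1 (0.31, adjusted p = 0.0367) passed in addition, and with library totals Sik1 did (-1.49, adjusted p = 0.0218 from edgeR).

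Nr4a1 (ENSMUSG00000023034, chromosome 15, 101151980 to 101172681), an orphan nuclear receptor and immediate-early gene, was scarce in both organs, at 1.14, 1.90, 3.52 and 10.1 CPM in vehicle livers and 2.04, 0.672, 5.61 and 6.52 CPM in vehicle kidneys. The groups overlapped, and the log2 difference of 0.18 had an interval of -1.47 to 1.83. It was -0.44 with library totals and -0.34 without vehicle replicate 4, whose liver was the highest of all. Igfbp1 (ENSMUSG00000020429, chromosome 11, 7147651 to 7152546), a secreted binding protein for insulin-like growth factors that insulin represses, had 23.3, 16.5, 11.6 and 21.1 CPM in vehicle livers and 3.45, 10.3, 12.4 and 14.7 CPM in vehicle kidneys. The log2 difference of 0.83 missed the threshold (adjusted p = 0.0913 from edgeR), and 3 of 4 livers were above all 4 kidneys. With library totals it was 0.21 (adjusted p = 0.650 from edgeR).

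The effect of 7c was then read in liver. None of the 10 genes passed the threshold in edgeR's quasi-likelihood test over 15012 genes (adjusted p = 1.00 for each), where 0.00666% of all genes did, a single gene that was none of the 10. At an unadjusted p under 0.05 the count was 1 of 10, Sik1, against 3.76% of all genes, and no gene had 7c and vehicle livers that did not overlap, against 0.666%. DESeq2, limma-voom and edgeR's likelihood ratio test called 0 of the 10 as well. The estimates were above 0 for 4 genes and below 0 for 6, with a median of -0.12 (all genes, 0.0017). A p that misses the threshold does not show that the groups were equal, and the 95% intervals give the range of differences left by these data.

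Among the enzyme genes, Pck1 in 7c livers was spread over 954 (lowest), 2093 (median) and 3300.1 CPM (highest), around the vehicle values of 1638 to 2765 CPM. Of the 6 treated livers, 2 were below every vehicle liver and 2 above, and the log2 fold change was -0.20 (standard error 0.325, 95% interval -0.90 to 0.50). Leaving out 1 library moved it to between -0.38 (7c replicate 5) and -0.053 (7c replicate 1). G6pc1 went the opposite way in spread, with vehicle livers at 214 to 1187 CPM enclosing all 6 treated livers, which stood at 334 (lowest), 471 (median) and 712 CPM (highest). Its log2 fold change was -0.45 (standard error 0.378, 95% interval -1.26 to 0.37), and it was -0.75 without vehicle replicate 2 and -0.021 without vehicle replicate 4.

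The other enzyme and transporter genes had narrower intervals. Fbp1 averaged 1381 ± 260.1 CPM with 7c (SD, n = 6) against 1281 ± 104 CPM with vehicle (SD, n = 4), for a log2 fold change of 0.083 (95% interval -0.23 to 0.39). Pcx averaged 665 ± 95.4 against 611 ± 45.6 CPM, for a log2 fold change of 0.099 (-0.14 to 0.34). Of the treated livers of Fbp1, 4 were above every vehicle liver and 1 was below. Slc37a4 had the highest estimate of the 10, 0.30 (standard error 0.149, -0.025 to 0.62), from averages of 207 ± 42.9 CPM with 7c and 165 ± 23.8 CPM with vehicle. Its treated livers stood at 162 (lowest), 189.7 (median) and 267 CPM (highest), 3 of the 6 above every vehicle liver and none below (two-sided exact permutation test over 210 splits, p = 0.124). Without the liver of 7c replicate 6, which held the muscle transcripts and had the highest Slc37a4 value, the estimate was 0.21, and Fbp1 and Pcx stood at 0.019 and 0.034. Without 7c replicate 2 these were 0.18 and 0.15.

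Of the cAMP and fasting response genes, Sik1 and Nr4a1 had the lowest estimates. Sik1 in 7c livers stood at 7.54 (lowest), 13.7 (median) and 19.1 CPM (highest), against 10.3, 8.53, 39.3 and 38.4 CPM in the livers of vehicle replicates 1 to 4. Vehicle replicates 3 and 4 stood above all 6 treated livers, while vehicle replicates 1 and 2 lay within their range. The log2 fold change was -0.90 (standard error 0.408, 95% interval -1.78 to -0.020, unadjusted p = 0.0457 and adjusted p = 1.00 from edgeR), and the two-sided exact permutation test of log2 CPM gave p = 0.267. It was -0.55 without vehicle replicate 3 and -0.58 without vehicle replicate 4.

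Nr4a1 had the lowest estimate, -1.22 (standard error 0.702, -2.73 to 0.29), from 1.14, 1.90, 3.52 and 10.1 CPM in vehicle livers and 0.136 (lowest), 1.56 (median) and 3.68 CPM (highest) in the treated ones. Here 1 library set the size, because the estimate was -0.28 without vehicle replicate 4. At the low end the liver of 7c replicate 5 held 3 Nr4a1 counts. Vehicle replicates 3 and 4 were thus the highest vehicle livers for Sik1, Nr4a1 and G6pc1 alike.

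Crem, Creb3l3 and Igfbp1 gave estimates nearer 0. Crem averaged 33.5 ± 8.85 CPM with 7c (SD, n = 6) against 37.6 ± 6.48 CPM with vehicle (SD, n = 4), for a log2 fold change of -0.19 (-0.60 to 0.22), which was -0.33 without 7c replicate 3 and -0.082 without vehicle replicate 1. Creb3l3 was the steadiest of the 10 genes in liver, at 432 ± 35.1 and 395 ± 11.7 CPM, and 4 of 6 treated livers were above every vehicle liver at a log2 fold change of 0.10 (-0.083 to 0.29; exact permutation p = 0.162), or 0.064 without 7c replicate 4. Igfbp1 in 7c livers stood at 5.22 (lowest), 9.37 (median) and 46.3 CPM (highest), against 11.6 to 23.3 CPM with vehicle. All 6 treated livers fell outside the vehicle range, 2 above it and 4 below, so the log2 fold change of -0.055 (-1.17 to 1.06) is an average over both sides. Leaving out 7c replicate 3 gave -0.64, and leaving out 7c replicate 6 gave 0.13.

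**Figure D2:**
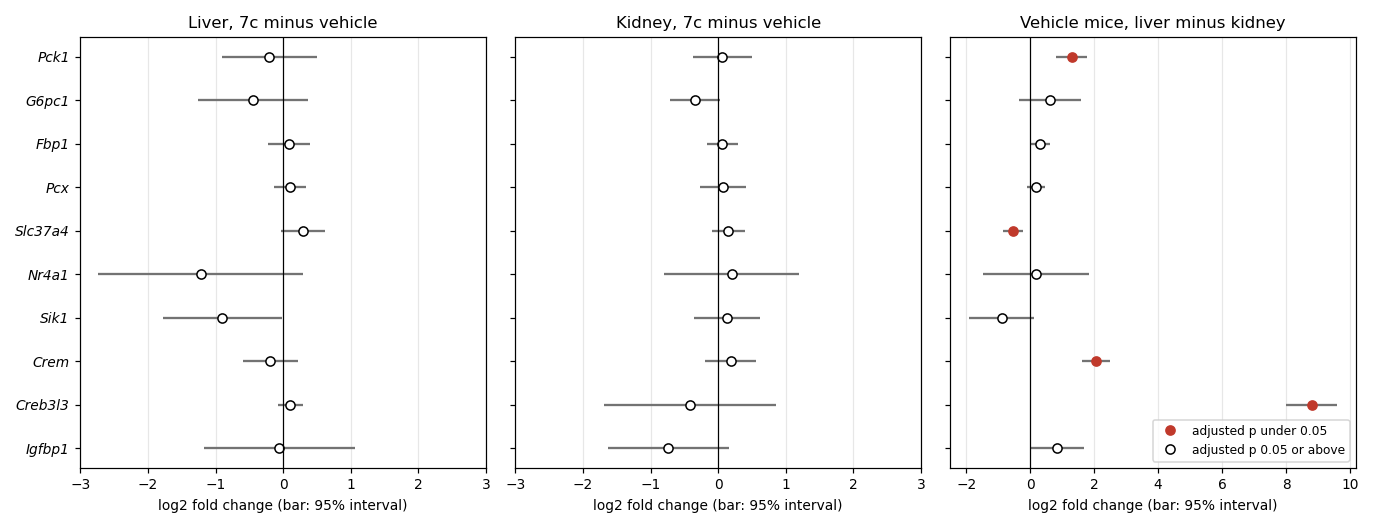
Log2 fold changes of the 10 genes with 95% intervals for 7c minus vehicle in liver (left) and kidney (middle) and for liver minus kidney in vehicle mice (right, wider axis), with filled points for an adjusted p under 0.05. In the left and middle panels every point is open, and the interval of Sik1 in liver, -1.78 to -0.020, is the only one there that does not reach 0. On the right Pck1, Crem and Creb3l3 are filled above 0 and Slc37a4 below.

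In kidney 7c and vehicle overlapped for each of the 10 genes too, against 0.716% of all genes whose groups did not overlap. None passed the threshold in edgeR's quasi-likelihood test (adjusted p = 0.997 for each), and 0% of the 17749 genes tested did. At an unadjusted p under 0.05 the count was 0 of 10, against 2.61% of all genes, and DESeq2, limma-voom and the likelihood ratio test called 0 of the 10. The estimates were above 0 for 7 genes and below 0 for 3, with a median of 0.066 (all genes, -0.0057).

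G6pc1 in 7c kidneys stood at 241 (lowest), 375 (median) and 410.5 CPM (highest), against 347, 422, 576 and 425 CPM with vehicle. No treated kidney was above the vehicle range and 2 of 6 were below it, for a log2 fold change of -0.34 (standard error 0.170, 95% interval -0.71 to 0.029, exact permutation p = 0.114). It was -0.18 without vehicle replicate 3. Slc37a4 lay above all 4 vehicle kidneys in 5 of 6 treated kidneys, at 225 (lowest), 265 (median) and 326 CPM (highest) against 219 to 249.6 CPM, and the log2 fold change was 0.15 (-0.096 to 0.40, exact permutation p = 0.171), or 0.085 without 7c replicate 5.

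Pck1 averaged 999 ± 259 CPM with 7c (SD, n = 6) against 952 ± 204 CPM with vehicle (SD, n = 4), for a log2 fold change of 0.059 (-0.38 to 0.49). Fbp1 stood at 1093 ± 75.1 and 1037 ± 104 CPM, a log2 fold change of 0.064 (-0.16 to 0.29), the narrowest interval of the 10 in kidney. Pcx averaged 566 ± 130.2 against 536 ± 23.9 CPM, for a log2 fold change of 0.068 (-0.28 to 0.41). The treated kidneys of Pcx extended past the vehicle range on both sides, 3 above and 2 below. The estimate of Pck1 was -0.088 without 7c replicate 3 and -0.074 without vehicle replicate 2, and that of Pcx -0.050 without 7c replicate 5, so that neither kept its sign. That of Fbp1 was 0.13 without vehicle replicate 2 and 0.027 without vehicle replicate 1.

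Igfbp1 had the lowest kidney estimate, -0.74 (standard error 0.414, -1.63 to 0.16), with 1.91 (lowest), 6.78 (median) and 9.02 CPM (highest) after 7c and 3.45, 10.3, 12.4 and 14.7 CPM after vehicle. All 6 treated kidneys were below the 3 higher vehicle kidneys, and vehicle replicate 1 lay among them (exact permutation p = 0.248). Creb3l3 at 0.147 to 1.65 CPM in 7c kidneys and 0.510 to 1.52 CPM in vehicle kidneys had an estimate of -0.42 (-1.69 to 0.85), which was -0.028 without vehicle replicate 2 and -0.91 without 7c replicate 5. Of 7 hepatocyte markers, 4 had an unadjusted p under 0.05, against 2.61% of all genes, with estimates below 0, and none passed the threshold. The estimates of the 7 ran from -2.99 for Cps1 to 0.43 for Serpina1a, and the summed level overlapped, at 78.4 to 285 CPM with 7c and 174 to 277 CPM with vehicle. Their part in the kidney values of Creb3l3 and Igfbp1 was not tested.

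Sik1, Crem and Nr4a1 had estimates a little above 0 in kidney. Sik1 had 49.8 ± 13.8 CPM in 7c kidneys and 45.0 ± 11.2 CPM in vehicle kidneys (0.13, -0.35 to 0.62), Crem 10.5 ± 1.61 and 9.11 ± 2.18 CPM (0.19, -0.19 to 0.56), and Nr4a1 4.30 ± 1.11 and 3.71 ± 2.80 CPM (0.20, -0.80 to 1.20). The vehicle kidneys of Nr4a1 lay far apart (2.04, 0.672, 5.61 and 6.52 CPM) and enclosed all 6 treated kidneys. Without vehicle replicate 2, the kidney with the lowest Sik1 and Nr4a1 values, the estimates were -0.018 for Sik1 and -0.15 for Nr4a1, and Nr4a1 stood at 0.61 without vehicle replicate 4. The estimate of Crem was 0.37 without vehicle replicate 1 and 0.11 without vehicle replicate 4.

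The 7c effect in liver minus that in kidney was tested as an interaction over 14163 genes. It passed the threshold for 0 of the 10 genes in edgeR's quasi-likelihood test (adjusted p = 1.00 for each), against 0.00706% of all genes, and for 0 of 10 at an unadjusted p under 0.05, against 2.49%. DESeq2, which gave an adjusted p for 6 of the 10, called none of those, and limma-voom and the likelihood ratio test called none of the 10. Sik1, with -0.90 in liver and 0.13 in kidney, had a difference of -1.04 (standard error 0.512, -2.11 to 0.023, unadjusted p = 0.0547). Nr4a1 had the widest gap, -1.44 (-3.34 to 0.47). For Fbp1 and Pcx the differences were 0.010 (-0.40 to 0.42) and 0.021 (-0.41 to 0.46).

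How far the genes varied between mice of the same treatment was measured by the SD of log2 CPM within treatment groups. In liver Pck1 had an SD of 0.66, G6pc1 0.79, Sik1 0.84, Igfbp1 0.99 and Nr4a1 1.46, where the median over genes with a mean above 5 CPM was 0.22. Nr4a1 was itself below 5 CPM on average in liver, and its SD includes counting error. Of the genes above 5 CPM, 96.8% varied less than Pck1 and 97.8% less than G6pc1. Creb3l3 was at the other end with an SD of 0.10, and only 4.64% of genes varied less. The factor between the highest and the lowest of the 10 livers was 3.46 for Pck1, 5.54 for G6pc1, 5.21 for Sik1, 8.88 for Igfbp1 and 1.28 for Creb3l3.

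The kidney gave another ranking. Pck1 and G6pc1 had SDs of 0.35 and 0.29 there (median of genes above 5 CPM, 0.25), and Fbp1 was steady at 0.12, with 8.30% of genes varying less. Igfbp1 stayed variable, with an SD of 0.87 and a factor of 7.72 between the kidneys. The kidney SDs of Nr4a1 (0.95) and Creb3l3 (1.01) belong to genes below 5 CPM on average and include counting error. Whether a gene varied more in one organ than in the other was not tested.

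**Figure D3:**
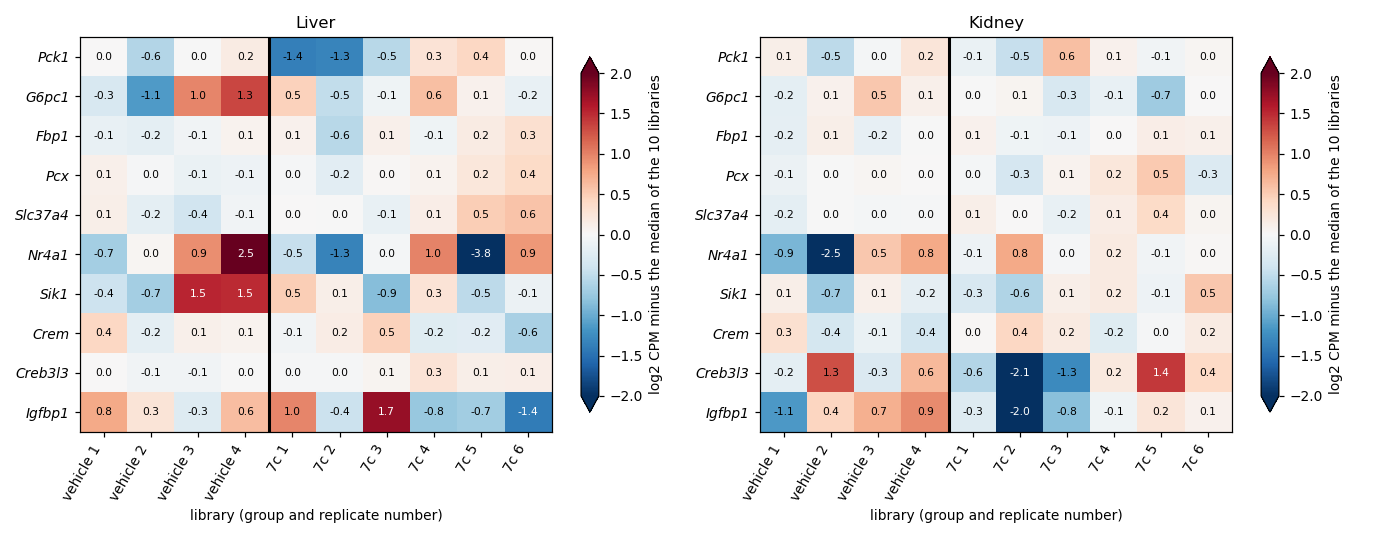
Log2 CPM of each gene minus its median over the 10 libraries of the organ, in liver (left) and kidney (right), with a column for each library and vehicle to the left of the black line. Vehicle livers 3 and 4 are high for G6pc1, Sik1 and Nr4a1, 7c livers 1 and 2 are low for Pck1, and the palest rows are Creb3l3 in liver and Fbp1 in kidney.

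Pairs of the 10 genes were correlated over the 10 livers, after each treatment group was centred on its own mean. Of 45 pairs, 0 passed an adjusted p of 0.05 and 3 had an exact permutation p under 0.05 (17280 orders within the treatment groups). Pck1 and Creb3l3 had the lowest p (r = 0.879, exact permutation p = 0.00365, adjusted p = 0.161), with a Spearman rho of 0.855 (exact permutation p = 0.00486, adjusted p = 0.219). Without the 2 livers farthest from the median of Pck1 the r was 0.734. Pcx and Slc37a4 had an r of 0.831 (exact permutation p = 0.00718, adjusted p = 0.161) and a rho of 0.673 (p = 0.0642, adjusted p = 0.484, exact permutation), and r was 0.832 without the 2 farthest livers. Crem and Igfbp1 had an r of 0.756 (exact permutation p = 0.0267, adjusted p = 0.400) and a rho of 0.673 (p = 0.0463, adjusted p = 0.484, exact permutation), but r was 0.272 without the 2 farthest livers, so that the relation rests on those samples.

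For G6pc1 and Sik1 the livers formed separate groups, vehicle replicates 3 and 4 high for both genes and the other 8 livers lower, and no correlation is given. The high livers had 926 and 1187 CPM of G6pc1 and 39.3 and 38.4 CPM of Sik1, and none of the other 8 exceeded 712 and 19.1 CPM.

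**Figure D4:**
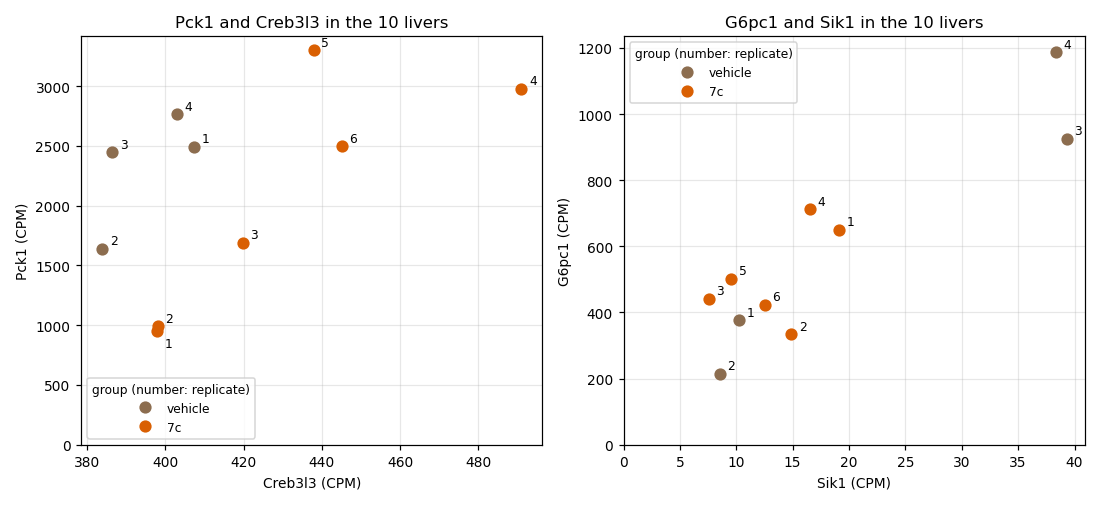
CPM of Pck1 against Creb3l3 (left, with a horizontal axis that does not start at 0) and of G6pc1 against Sik1 (right) in the 10 livers, labelled by replicate number and coloured by treatment. Creb3l3 spans only 384 to 491 CPM while Pck1 spans 954 to 3300.1 CPM, and vehicle livers 3 and 4 stand apart on the right.

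Over the 10 kidneys 0 of 45 pairs passed an adjusted p of 0.05, and 6 had an exact permutation p under 0.05. Fbp1 and Creb3l3 had the lowest, with an r of 0.859 (exact permutation p = 0.00214, adjusted p = 0.0964) and a rho of 0.927 (p = 0.00133, adjusted p = 0.0599, exact permutation). Without the 2 kidneys farthest from the median of Fbp1 the r was 0.832. Both genes were highest in the kidneys with the highest proximal tubule sums in their treatment group, vehicle replicate 2 and 7c replicate 5, which also held the highest hepatocyte sums, and the part of these sums in the correlation was not tested. Pck1 and Creb3l3, the leading pair in liver, had an r of -0.0918 in kidney (exact permutation p = 0.821, adjusted p = 0.957) and a rho of -0.127 (p = 0.746, exact permutation). Creb3l3 rested on only 6 to 68 counts per kidney library, so that its kidney correlations include counting error. Crem and Igfbp1, positive in liver, had an r of -0.805 in kidney (exact permutation p = 0.0134, adjusted p = 0.218), which was -0.293 without the 2 kidneys farthest from the median of Crem, and a rho of -0.552 (p = 0.128, adjusted p = 0.409, exact permutation).

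Across all genes with a mean of at least 5 CPM, those most like a member over the 10 livers, by Pearson r of centred log2 CPM, were Tmed5 (0.944) and Rdh9 (0.925) for Pck1, Iscu (0.928) and Babam1 (0.923) for G6pc1, Clpp (0.915) and Mpzl1 (0.913) for Igfbp1 and Rpusd3 (0.925) and Tmem60 (0.895) for Nr4a1, out of 9868 genes. Over the 10 kidneys they were Hmgn5 (0.964) and Ido2 (0.950) for Pck1, Adamts10 (0.955) and Nras (0.926) for G6pc1, D630023F18Rik (0.921) and Gm13736 (0.920) for Igfbp1 and Ahdc1 (0.958) and Kremen1 (0.938) for Nr4a1, out of 10332. None of these genes was named in both organs. Spearman rho was 0.721 for D630023F18Rik and 0.503 for Gm13736, against 0.806 or more for the other genes named. All of these genes are the extremes of many comparisons over 10 libraries and are given as a description.

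The rest of the pathway was read from lists of related genes. In liver 0 genes of any list passed the threshold between 7c and vehicle (edgeR's quasi-likelihood test, adjusted p = 1.00 for each gene named here). The median log2 fold changes were 0.052 over 24 other enzymes and carriers of gluconeogenesis and glycolysis, -0.019 over 20 regulators, 0.017 over 27 genes of cAMP signalling, -0.17 over 15 other CREB targets and 0.12 over 14 fasting and feeding genes. The nuclear receptor Hnf4a stood at -0.081 and the protein kinase A subunit Prkar1a at -0.043. At an unadjusted p under 0.05 the lists held 1 of 24 enzymes and carriers, 1 of 20 regulators, 0 of 27 genes of cAMP signalling 1 of 15 CREB targets and 0 of 14 fasting and feeding genes, against 3.76% of all genes. The 3 genes were Gpt2, an alanine aminotransferase, at 0.44 (standard error 0.167, unadjusted p = 0.0189), the transcription factor Cebpb at 0.68 (standard error 0.228, unadjusted p = 0.0106) and the phosphatase gene Dusp1 at -0.96 (standard error 0.285, unadjusted p = 0.00471), named here after their values were seen. The mean of Dusp1 was 13.5 CPM with 7c and 25.7 CPM with vehicle.

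In kidney 0 genes of any list passed either (edgeR's quasi-likelihood test, adjusted p = 0.997 for each gene named here). The medians were 0.037 over 24 other enzymes and carriers, -0.059 over 20 regulators, -0.0037 over 28 genes of cAMP signalling, 0.016 over 17 other CREB targets, 0.16 over 12 fasting and feeding genes and -0.16 over 8 genes listed for renal glutamine and ammonia handling. At an unadjusted p under 0.05, against 2.61% of all genes, the lists held 0 of 24 enzymes and carriers, 1 of 20 regulators, 2 of 28 genes of cAMP signalling, 3 of 17 CREB targets, 1 of 12 fasting and feeding genes and 0 of 8 of the renal list. The CREB targets were Rgs2, Atf3 and Gadd45b, with estimates above 0, and Atf3, a stress-induced transcription factor, stood at 1.17 (standard error 0.367, unadjusted p = 0.00731) on means of 1.55 and 0.678 CPM. Of the adenylyl cyclases, Adcy4 stood at 0.59 (standard error 0.248, unadjusted p = 0.0348) and Adcy9 at -0.51 (standard error 0.219, unadjusted p = 0.0370), and Cebpb at 0.55 (standard error 0.205, unadjusted p = 0.0193). The fatty acid synthase gene Fasn, of the fasting and feeding list, stood at 0.70 (standard error 0.264, unadjusted p = 0.0210), where 7 of 7 adipocyte markers tested also had an unadjusted p under 0.05 and estimates above 0, and their part in the Fasn value was not tested. All 7 genes were picked out on seeing these values.

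The smaller families around the members gave no call between 7c and vehicle in either organ. The median log2 fold change was -0.027 in liver and -0.13 in kidney over the 3 SIK kinases (Sik1 included), 0.13 and -0.024 over the other CREB3 family genes (3 tested in liver, 4 in kidney), and 0.0080 and 0.060 over the 6 other IGF-binding proteins. Clock output genes, which oscillate over the day, had medians of 0.25 and 0.079 over 10 genes, of which 2 in liver and 0 in kidney had an unadjusted p under 0.05, against 3.76% and 2.61% of all genes. The 2 were Per3, at 1.62 (standard error 0.751, unadjusted p = 0.0498), and Dbp, a clock output transcription factor, both named after their values were seen. Dbp ranged from 0.324 to 117 CPM with 7c and from 4.30 to 6.36 CPM with vehicle, and its log2 fold change was 2.65 (standard error 1.16, unadjusted p = 0.0395). The part of the clock genes in the spread of the 10 genes was not tested.

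Between the organs of vehicle mice most lists were divided, against 25.7% of all genes higher in liver and 27.7% higher in kidney (edgeR's quasi-likelihood test with Benjamini-Hochberg adjustment). Of 25 other enzymes and carriers, 8 were higher in liver and 12 higher in kidney. Serine dehydratase Sds (means of 144 CPM in liver and 0.0680 CPM in kidney) and the alanine aminotransferases Gpt (2.82 on the log2 scale) and Gpt2 (2.77), which draw carbon from amino acids, were on the liver side, and lactate dehydrogenase Ldhb (-8.74) and the ubiquitous phosphatase G6pc3 (-3.14) on the kidney side. Of 20 regulators, 12 were higher in liver and 1 higher in kidney, the glucagon receptor Gcgr (3.38), Cebpa (4.06) and Nr0b2 (5.07) being among the former. Of 28 genes of cAMP signalling, 7 were higher in liver and 9 higher in kidney. The cAMP-activated exchange factors split, Rapgef4 (5.15) to liver and Rapgef3 (-4.61) to kidney. Of 17 other CREB targets, 4 were higher in liver and 3 higher in kidney, with tyrosine aminotransferase Tat (11.90) on the liver side. Of 14 fasting and feeding genes, 11 were higher in liver and 2 higher in kidney. Of 8 genes listed for renal glutamine and ammonia handling, 2 were higher in liver and 6 higher in kidney, with the tubular carriers Slc6a19 and Slc9a3 in kidney, as was the glucose carrier Slc5a2 of that list, and Slc38a3 (4.89) and Glud1 (2.00) in liver. Of the 6 other IGF-binding proteins, 2 were higher in liver and 3 higher in kidney, of the 10 clock output genes 2 were higher in liver and 5 higher in kidney, of the 4 other CREB3 genes 1, Creb3l1 (-2.57), was higher in kidney, and of the 3 SIK kinases none passed. With library totals in place of TMM factors 13.9% of all genes were higher in liver and 47.3% higher in kidney, and the list counts were 7 higher in liver and 16 in kidney for the enzymes and carriers, 8 higher in liver and 5 in kidney for the regulators, 6 higher in liver and 16 in kidney for cAMP signalling, 1 higher in liver and 7 in kidney for the other CREB targets, 0 higher in liver and 2 in kidney for the SIK kinases, 0 higher in liver and 3 in kidney for the CREB3 family, 11 higher in liver and 3 in kidney for the fasting and feeding genes and 1 higher in liver and 6 in kidney for the clock output genes.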

How the data were processed

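RNA of whole liver and kidney was sequenced, and the authors aligned the reads with STAR 2.7.11b and counted them per gene with featureCounts 2.0.6, as the submitters' processing notes name them. The deposited values are raw, unnormalized read counts for 57010 Ensembl genes in 20 libraries, of which 22978 were at 0 throughout. The annotation release and the strand setting of the counting are not given in the sources used here, so reads of overlapping genes on opposite strands may not have been separated. Total counts were 28383359 to 34153084 per liver and 27855849 to 64872451 per kidney.

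Groups followed the labels. Genes reaching 10 counts in 50% or more of the libraries compared (in each organ, for the difference of the 7c effects) were fitted with edgeR 4.0.16 (R 4.3.3), using TMM normalization and the quasi-likelihood F-test, and p-values were adjusted over all genes tested by Benjamini-Hochberg at a threshold of 0.05. Each organ was fitted alone for 7c against vehicle, all libraries for the difference of the 7c effects, and the vehicle libraries for liver against kidney. Fold changes are on the log2 scale, and 95% intervals come from the F statistic. CPM values use TMM factors over all 20 libraries. Correlations were taken over log2 CPM (prior count 2), centred by treatment group, and permutation tests enumerated all splits or orders (SciPy 1.17.1). Gene positions and exon lengths came from GENCODE on GRCm39. Alternatives included DESeq2 1.42.0 and limma-voom (limma 3.58.1).

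The members and the gene lists were chosen with earlier results of these data known. From each list the genes past the threshold (at most 5, by adjusted p) or, where none passed, the 2 most abundant could be named. Other genes are said to have been named after their values were seen. Some genes of the lists are not reported here by name.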

Additional observations from a re-analysis of the deposited data

Results flagged for a closer look

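In the vehicle kidneys Slc37a4 was lowest in replicate 1, at 219 CPM, while the other 3 lay between 244 and 249.6 CPM. Its gap to the nearest kidney was 0.830 of the range of the group, just past Dixon's 95% critical value for 4 samples. In the 7c kidneys Nr4a1 was highest in replicate 2, at 6.50 CPM, while the other 5 lay between 3.58 and 4.35 CPM, and the gap was 0.735 of the range, past the critical value for 6 samples. These were the 2 flags among 40 groups of libraries tested, and chance flags about 1 group in 20.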

How the results depend on the processing

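None of the 10 genes passed the threshold for 7c in liver, in kidney or for the difference between them under any alternative tried, which covered RLE size factors, DESeq2, limma-voom, the likelihood ratio test, edgeR's newer quasi-likelihood method, no filter, filterByExpr, the replicate block, both tissues in 1 fit (for each organ), library totals and leaving out each replicate number. In the difference DESeq2 gave no adjusted p for 10711 of the 14163 genes, Crem, Igfbp1, Nr4a1 and Sik1 among them. For all genes, the liver count of 1 became 6 with DESeq2, 7 with the likelihood ratio test, 4 with no filter, 2 with filterByExpr, 4 with both tissues in 1 fit and 0 to 2 without 1 replicate. The kidney count of 0 became 18 with DESeq2, 2 with limma-voom, 14 with the likelihood ratio test, 2 with the newer method, 3 with no filter, 18 with both tissues in 1 fit and 0 to 3 without 1 replicate. For the difference, the count of 1 became 16, 0, 22, 11 and 2 with DESeq2, limma-voom, the likelihood ratio test, no filter and filterByExpr, and 0 to 6 without 1 replicate. The fit with no filter tested 34032 genes there. Between the organs the 4 calls (Pck1, Crem, Creb3l3 and Slc37a4) held under every alternative, with 6 genes called by limma-voom, 5 with the replicate block and 6 with library totals, an alternative chosen after seeing the data. The cause of these changes was not tested.

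Several estimates changed sign. With library totals, liver minus kidney was -0.29 for Fbp1, -0.42 for Pcx and -0.44 for Nr4a1, and the difference of the 7c effects -0.048 for Fbp1 and -0.019 for Pcx. With limma-voom that difference was 0.16 for G6pc1 and -0.012 for Fbp1. For 7c against vehicle in liver, limma-voom kept the signs of Pck1 and G6pc1 but gave -0.34 and -0.17. Without 1 replicate the estimates ran over -0.64 to 0.13 for Igfbp1 in liver, over -0.088 to 0.16 for Pck1, -0.050 to 0.14 for Pcx, -0.15 to 0.61 for Nr4a1 and -0.018 to 0.23 for Sik1 in kidney, over -0.37 to 0.33 for G6pc1, -0.077 to 0.080 for Fbp1, -0.11 to 0.11 for Pcx and -0.0057 to 1.10 for Igfbp1 in the difference, and over -0.34 to 0.52 for Nr4a1 between the organs.

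Replicate numbers were not taken as pairs. Same-numbered libraries correlated, in their deviations from the group means, at -0.0975 to 0.205 (liver and kidney, 7c), -0.0954 to 0.189 (liver and kidney, vehicle), -0.0267 to 0.211 (vehicle and 7c, kidney) and -0.0455 to 0.0338 (vehicle and 7c, liver). As an alternative, the replicate block gave 0 genes in liver, 0 in kidney and 0 for the difference. In its fits of 7c against vehicle, 7c replicates 5 and 6 had no vehicle library of the same number. Their values therefore did not enter those treatment estimates. Under this block the estimates of Fbp1 and Pcx in liver were -0.053 and -0.023, those of Pcx and Sik1 in kidney -0.019 and -0.0086, the differences for G6pc1 and Fbp1 0.15 and -0.013, and liver minus kidney for Sik1 -1.18 (adjusted p = 0.0248 from edgeR). Other estimates kept their sign under it but moved by over 1.5 times. In liver Pck1 stood at -0.66, G6pc1 at -0.12, Sik1 at -0.49, Slc37a4 at 0.11, Crem at -0.047 and Igfbp1 at -0.0072, and in kidney Nr4a1 at 0.57, Creb3l3 at -1.20, Slc37a4 at 0.074 and Fbp1 at 0.012. The differences were 0.28 for Igfbp1 and 0.040 for Pcx, and liver minus kidney was 0.33 for G6pc1.

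Depth was lowest for Nr4a1 in liver (3 to 285 counts) and Creb3l3 in kidney (6 to 68 counts).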
